A study of Rattus norvegicus with 4 samples.

Results

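The genes described here move cholesterol out of cells and handle lipoproteins. They are Abca1, Abcg1, Nr1h2, Nr1h3, Lpl, Pltp, Cd36, Scarb1, Apoc1 and Mylip. They were chosen by name, as the features of the array annotated with 1 of these 10 symbols, and features of the same gene were averaged on each array. All 10 were found, with 36 features, among 14871 named genes. The samples were kidney allografts of Lew rats (Lewis, an inbred strain) that had received an allogeneic kidney. One set of rats was given an ApoE-mimetic peptide (6 mg/kg body weight), modelled on apolipoprotein E (ApoE), and the other a control peptide, each as a daily injection into a vein from the day of transplantation until the grafts were taken on day 4. Each of 4 two-colour Agilent arrays compared 1 ApoE-mimetic graft with 1 control graft, and the 4 pairs are biological replicates. The dyes were swapped between arrays: RNA of ApoE-mimetic grafts was labelled with Cy5 on replicates 1 and 3, and with Cy3 on the other pair. All grafts had been transplanted, so no array holds an untransplanted kidney, and a whole graft mixes kidney cells with cells of the recipient. In such a mixture, fewer cells of a type and less RNA per cell cannot be told apart.

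Cells cannot break down the sterol ring and dispose of surplus cholesterol by exporting it. The liver X receptors LXR beta, encoded by Nr1h2, and LXR alpha, encoded by Nr1h3, are nuclear receptors that bind oxysterols and switch on the exporters Abca1, which loads lipid-poor apolipoproteins, and Abcg1, which loads high-density lipoprotein (HDL), as well as Mylip, a ubiquitin ligase that targets the low-density lipoprotein receptor for degradation. Pltp transfers phospholipids between lipoproteins, Lpl releases fatty acids from triglyceride-rich lipoproteins at the capillary wall, Apoc1 is a small apolipoprotein that restrains lipoprotein uptake and lipolysis, Scarb1 is the HDL receptor and Cd36 takes up fatty acids and oxidised lipoproteins. Macrophages express many of these genes, and ApoE itself accepts the lipids that Abca1 exports.

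The promoter of Abca1 is shown because it is the reference example of an LXR-driven exporter among the genes measured here. RefSeq's promoter table for the GRCr8 assembly held 7 of the 10 genes, and the sequence lies on the minus strand at chr5:72596424-72596723. Capitals mark, from left to right, a GC box (GGGCGG), an E-box (CACGTG), a pair of AGGTCA-type sites 4 bases apart and a TATA box (TATAAA).

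Abca1 promoter: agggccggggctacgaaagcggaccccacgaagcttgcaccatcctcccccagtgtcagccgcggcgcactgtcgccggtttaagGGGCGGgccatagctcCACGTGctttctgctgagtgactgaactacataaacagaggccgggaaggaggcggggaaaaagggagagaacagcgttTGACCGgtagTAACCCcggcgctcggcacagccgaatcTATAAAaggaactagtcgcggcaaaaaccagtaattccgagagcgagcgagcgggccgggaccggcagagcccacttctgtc

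Each promoter was a window of 300 bases that begins at base -250, and sequence outside it was not searched. The receptor site AGGTCA, searched on both strands as a pair in the same direction separated by 4 bases, is the form LXR binds with its partner RXR. With at most 1 mismatch in each AGGTCA the pair was found in 0 of the 7 genes' promoters and in 1.74% of all 33469 promoters in the table. With up to 1 mismatch in 1 of the AGGTCA sites and up to 2 in the other, a form chosen after the sequences were seen, it was found in Abca1 alone, at bases -70 to -55 from the gene's start, and in 18.6% of all promoters. The same AGGTCA-type sites 1 base apart, the form bound by PPAR with RXR, were found in 0 of the 7 genes and 2.26% of all promoters at 1 mismatch in each. The E-box stood in Abca1 and in 6.42% of all promoters, and the GC box in Abca1, Apoc1 and Mylip and in 33.1%. The TATAAA sequence, counted at any position, stood in Abca1, Cd36 and Mylip and in 14.2%. It lay at bases -32 to -27 in Abca1 and -31 to -26 in Mylip, but at -175 to -170 on the opposite strand in Cd36. Every motif was searched on both strands, and in the Abca1 sequence no motif overlapped another.

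The deposited values are ratios of the channels of each array and are taken as log2. Neither the labels nor the values settle which channel is the numerator. Replicates 1 and 3, of the same dye orientation, had a Pearson correlation of -0.238 across all 45220 features and -0.657 across the 13363 brighter ones. For replicates 2 and 4, which share the other orientation, it was -0.085 and -0.043, so neither pair correlated positively. Genes are not independent replicates in these values. Over all features replicate 4 was the widest (SD 1.26, the others 0.873 to 0.887). It had a drift across the slide from a median of -0.80 at one edge to 0.62 at the opposite edge. Over gene means of the brighter features alone it was the narrowest (SD 0.578, the others 0.661 to 0.709). Ratios on single arrays are given as deposited, minus the ratio of the array's median gene, and the comparison of the peptides is given for both readings. One reading takes the columns as Cy5 over Cy3 and turns replicates 2 and 4. The other takes every column as ApoE-mimetic over control, already turned by the authors. If the numerator is the opposite channel or peptide, every sign below turns. No intensities were used here, so the presence of kidney markers could not be checked as a level. Of 15 proximal tubule markers measured, 13 had a bright feature, and of 8 markers of other segments, 6 had one.

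Brightness limits what can be said of each gene. A feature was taken as dim where more than 2 features held its exact value on an array and as saturated where it held the shared value next to 0, and as bright where it was neither on any array. Of the 36 features 23 were bright. They represent 8 of the 10 genes, and the only features of Apoc1 and Mylip were dim on at least 1 array. Among all named genes, 6731 had a bright feature. Values from bright features are given relative to the array's median bright gene.

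The liver X receptors stayed close to the median gene on every array. Nr1h2 was measured by 1 feature, which was bright, and lay -0.06, -0.12, 0.01 and -0.02 log2 units from the median bright gene on replicates 1 to 4. This was a mean distance of 0.05, which put Nr1h2 at the 0.342 percentile of bright genes by distance, so its ratio was among the flattest measured. The bright feature of Nr1h3 gave 0.14, -0.09, -0.25 and -0.11, at a mean distance of 0.15 and the 12.2 percentile. Over all its features, Nr1h3 was at 0.17, 0.99, 0.05 and -1.21, because its other feature, dim on all 4 arrays, ran from 2.10 on replicate 2 to -2.20 on replicate 4. Between the bright features, Nr1h3 exceeded Nr1h2 by 0.19 and 0.03 on replicates 1 and 2 and was lower by 0.26 and 0.09 on replicates 3 and 4, so the receptors kept no fixed order.

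**Figure D1:**
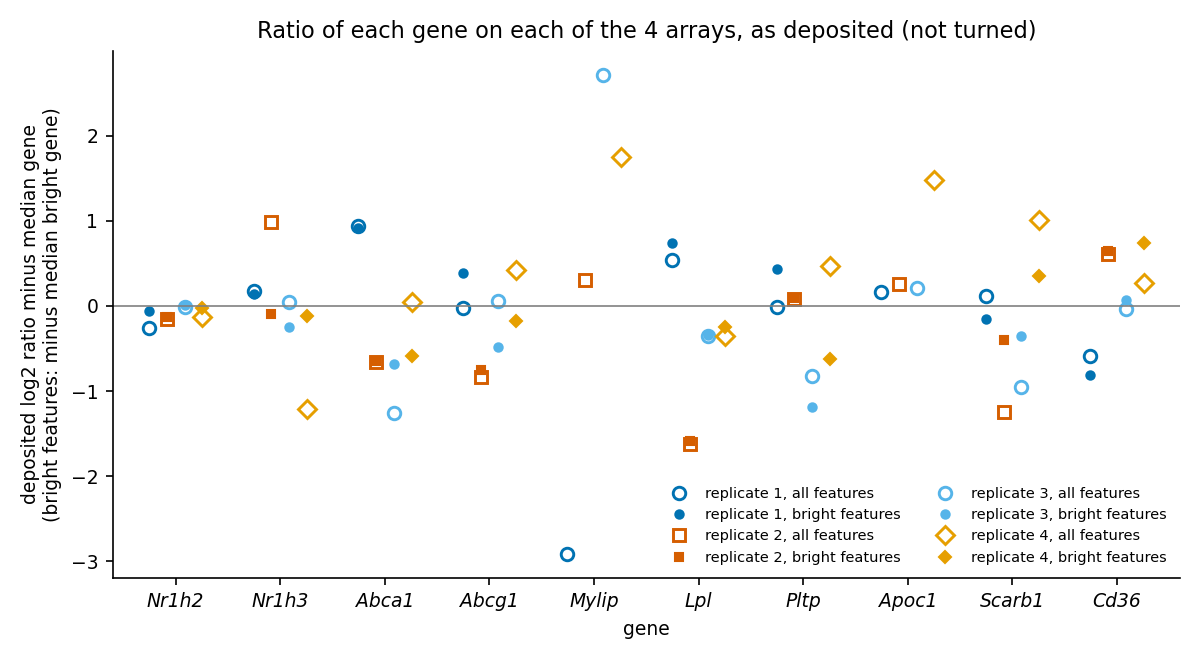
Log2 ratio of each of the 10 genes on each array as deposited, minus the array's median gene (open symbols, mean over all features) or median bright gene (filled symbols, bright features alone); blue arrays carry ApoE-mimetic RNA in Cy5 and orange arrays in Cy3. Nr1h2 lies near 0 on every array, Lpl lies at -1.62 on replicate 2, and Mylip, which has no bright feature, spans -2.91 to 2.71.

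In bright features, the cholesterol exporters lay further from the median gene than the receptors, at mean distances of 0.71 for Abca1 and 0.45 for Abcg1. Over all features this order did not hold, with Abcg1 at 0.34 and Nr1h3 at 0.61. Abca1 was at 0.93, -0.66, -1.25 and 0.05 over its 3 features, and its bright feature gave 0.92, -0.65, -0.68 and -0.59. Replicate 1 therefore stood on the opposite side from replicates 2, 3 and 4 in the bright feature. Its other 2 features were dim on at least 1 array, but neither was dim on replicate 4. There they disagreed with the bright feature: they lay above the median gene at 0.71 and 0.13, and the bright feature lay at -0.69. Abcg1 gave 0.39, -0.75, -0.48 and -0.17 in its bright feature, again above the median gene on replicate 1 and below it on the others. Over both its features Abcg1 was at -0.03, -0.83, 0.06 and 0.43, with the second feature dim on all 4 arrays. Abca1 exceeded Abcg1 by 0.53 and 0.10 on replicates 1 and 2 and was lower by 0.20 and 0.41 on replicates 3 and 4, so they too kept no fixed order.

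Lpl and Cd36 were each measured by 11 features. Those of lipoprotein lipase spread less on every array than those of Cd36, which included dim features. The spread was not compared over bright features alone. The 11 Lpl features were all bright and all annotated to the same transcript. They averaged 0.53, -1.62, -0.36 and -0.36 on replicates 1 to 4, with an SD over features of 0.17, 0.22, 0.21 and 0.33. All 11 features lay above the median gene on replicate 1, all 11 lay below it on replicates 2 and 3, and 9 of 11 did on replicate 4. The gap between replicates 1 and 2 was larger than the spread of repeated features, which reflects the array and not the animals. Among 226 genes with repeated features of 1 transcript, the feature SD of Lpl was at the 26.1 to 37.2 percentile. Replicate 2 held the lowest values.

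Cd36 was also measured by repeated features, but with dim ones included they agreed less. Its 11 features averaged -0.59, 0.61, -0.04 and 0.27, and its 6 bright features gave -0.81, 0.65, 0.07 and 0.74. Over the 10 features annotated to 1 transcript the SD was 0.61, 0.57, 0.28 and 0.88. On replicate 1, 7 of these 10 lay between -1.29 and -0.82, and the 3 that were dim there lay between 0.20 and 0.26. RefSeq lists a pseudogene of Cd36, and whether the features bind its transcript was not tested.

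Lpl and Cd36, which release and take up fatty acids, lay on opposite sides of the median gene on replicates 1, 2 and 4. Their difference on an array does not depend on the array's offset. Over the repeated features, Lpl exceeded Cd36 by 1.15 on replicate 1 and was lower by 2.20, 0.31 and 0.74 on replicates 2, 3 and 4. The features of both genes did not overlap on replicates 1 and 2. On replicate 1 the lowest Lpl feature was at 0.27 and the highest Cd36 feature at 0.26, and on replicate 2 the highest Lpl feature was at -1.29 and the lowest Cd36 feature at -0.11. They overlapped on replicates 3 and 4.

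**Figure D2:**
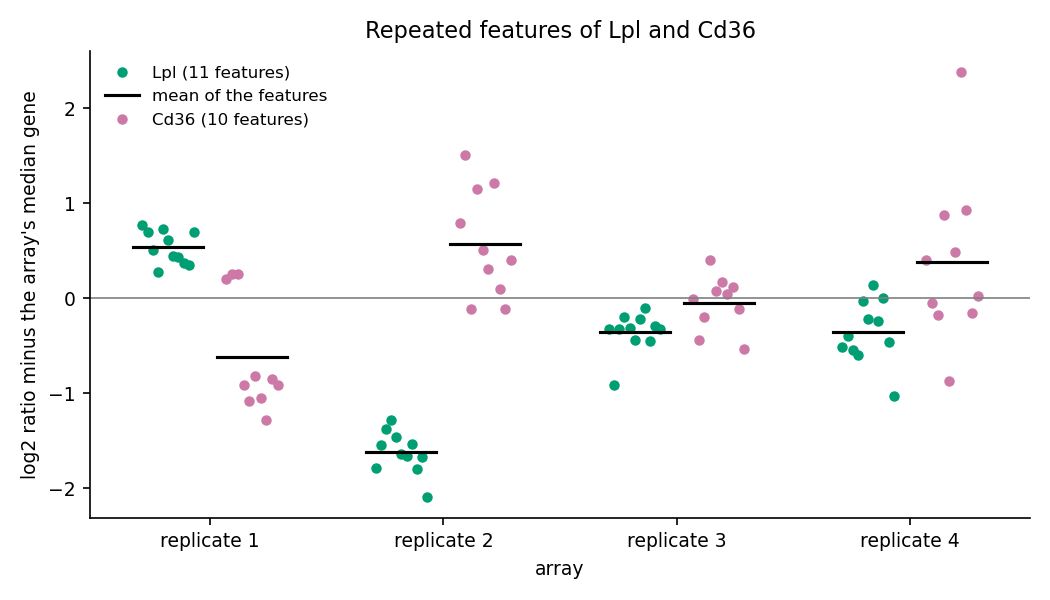
Log2 ratio, minus the array's median gene, of each repeated feature of Lpl (11 features) and Cd36 (10 features of 1 transcript) on each array as deposited, with bars at the mean of the features. Lpl sits above Cd36 on replicate 1 and below it on replicate 2 with no shared range, and Cd36 spreads widest on replicate 4, with an SD of 0.88.

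The remaining lipoprotein genes rested on 1 bright feature or none. The phospholipid transfer protein gene Pltp had a bright feature at 0.44, 0.10, -1.19 and -0.63, so replicates 1 and 2 lay above the median gene and replicates 3 and 4 below it. Over both features it was at -0.01, 0.08, -0.83 and 0.47, and the second feature was dim on all 4 arrays. The HDL receptor gene Scarb1 had a bright feature at -0.16, -0.40, -0.35 and 0.35, a mean distance of 0.31 at the 49.8 percentile of bright genes. Its other feature was dim on 3 of the 4 arrays and ran from -2.04 to 1.76.

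Neither Apoc1 nor Mylip had a bright feature. The single feature of Apoc1 was dim on all 4 arrays and read 0.16, 0.26, 0.21 and 1.48. The single feature of Mylip, the receptor-degrading ligase, was dim on replicates 2 and 4 and read -2.91, 0.31, 2.71 and 1.74, a mean distance of 1.92 at the 99.0 percentile of all genes. Replicates 1 and 3, on which it was not dim and which share a dye orientation, gave Mylip its extremes in opposite directions.

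No gene of the group passed the test between the peptides under either reading. With limma, fitted over all named genes with a dye term, 0 of 10 had an adjusted p under 0.05, where 0.0% of 14871 genes did. With columns taken as already turned, 0 of 10 passed, again against 0.0%. At an unadjusted p under 0.05 the count was 0 of 10 with columns read as Cy5 over Cy3, against 2.58% of all genes, and 0 of 10 with columns already turned, against 3.27%. The lowest unadjusted p among the 10 was 0.113 and 0.084 under these readings, both for Lpl, and the lowest limma adjusted p was 0.9999 and 0.825. The 4 pairs are biological, but these p-values rest on the spread left within each dye orientation.

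The intervals leave room for sizeable differences. With columns read as Cy5 over Cy3, the log2 ratio of ApoE-mimetic over control was 0.61 for Lpl (SE 0.32, n = 4; 95% interval -0.21 to 1.42), positive on 3 of 4 arrays after centring. It was -0.31 for Cd36 (SE 0.31; -1.12 to 0.50), 0.14 for Abca1 (SE 0.42; -0.95 to 1.22) and 0.18 for Abcg1 (SE 0.29; -0.57 to 0.93). The receptors had 0.07 for Nr1h2 (-0.65 to 0.79) and 0.18 for Nr1h3 (-1.11 to 1.47). Values below 0 were fitted for Pltp at -0.28 (-1.02 to 0.46), Apoc1 at -0.27 (-1.02 to 0.47), Scarb1 at -0.08 (-1.14 to 0.97) and Mylip at -0.50 (-2.95 to 1.95). The interval of Mylip was 4.90 log2 units wide and that of Nr1h2 1.44, the widest and the narrowest of the 10. All these intervals include 0. Array offsets are left in and give a median of 0.04 over all genes. The sign turned in 6 of the 10 genes when 1 replicate was left out. Without replicate 1 Abca1 had -0.38 and Mylip 0.94, and without replicate 2 Abcg1 had -0.012. Without replicate 3 Nr1h2 had -0.017 and Scarb1 0.16, and Mylip went to -1.93. Without replicate 4 Nr1h2 had -0.047, Nr1h3 -0.50 and Scarb1 0.35. Cd36, Pltp and Apoc1 kept their sign but came as near to 0 as -0.10 without replicate 2, -0.10 without replicate 3 and -0.09 without replicate 4, in that order.

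With columns taken as already turned, 8 of the 10 genes had a negative coefficient. Lpl had -0.68 (SE 0.32; -1.49 to 0.13), Scarb1 -0.50 (-1.55 to 0.56), Abca1 -0.46 (-1.55 to 0.62), Nr1h2 -0.37, Abcg1 -0.32, Pltp -0.30, Nr1h3 -0.23 and Cd36 -0.17, whereas Apoc1 had 0.30 and Mylip 0.23. The array offsets give all genes a median of -0.24 under this reading, so most of these values lie near the median gene. After centring, Lpl had -0.45, Abca1 -0.23, Apoc1 0.53 and Cd36 0.06. For Lpl, flipping signs of the centred ratios (exact permutation, two-sided) gave p = 0.375 with replicates 2 and 4 turned and p = 0.5 without, and 4 arrays allow no p below 1 in 8.

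**Figure D3:**
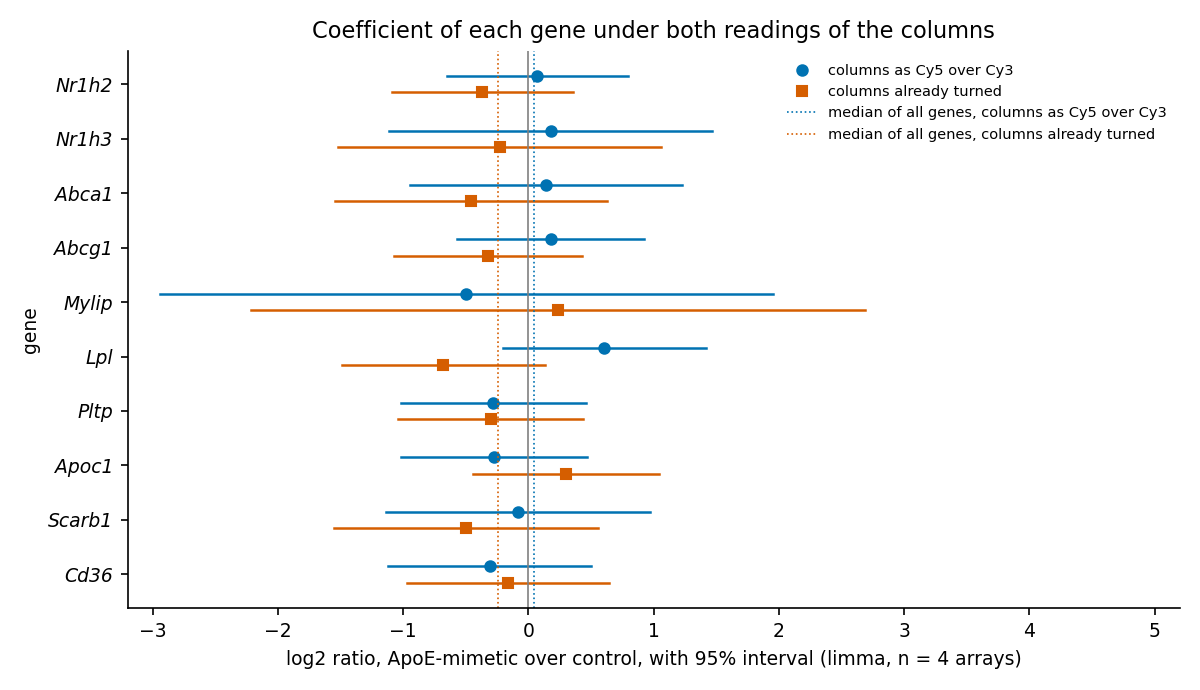
Log2 ratio of ApoE-mimetic over control graft for each gene with its 95% interval from limma (n = 4 arrays), for columns read as Cy5 over Cy3 (circles) and as already turned (squares); dotted lines mark the median of all genes, 0.04 and -0.24. Every interval includes 0, and Lpl lies farthest from 0 among genes with bright features, at 0.61 and -0.68.

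Bright features alone added no call. With columns read as Cy5 over Cy3, Cd36 had -0.49 (-1.19 to 0.22), Lpl 0.61 (-0.06 to 1.27), Abca1 0.41 (-0.34 to 1.16) and Pltp -0.01 (-0.89 to 0.87, wider than over both features), and 0 of 8 genes had an unadjusted p under 0.05, where 0.624% of bright genes did. With columns already turned, 2 of 8 did, Abcg1 at -0.57 (-1.14 to -0.01) and Lpl at -0.68 (-1.35 to -0.01), each with a limma adjusted p = 0.492, where 5.84% of bright genes did. Bright genes have a median of -0.33 under that reading. With each array centred first, Abcg1 had -0.25 and Lpl -0.36, 0 of 8 genes reached 0.05 unadjusted, and 2.29% of bright genes did. The same centring with columns read as Cy5 over Cy3 gave Cd36 -0.53 (-1.09 to 0.03, limma unadjusted p = 0.0576). Lpl had 0.56 there (-0.33 to 1.45), and no gene passed after adjustment.

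The signs over the 4 arrays were counted, without a test of the counts. After turning replicates 2 and 4, Pltp and Cd36 lay below the median gene on 4 of 4 arrays, 2 of 10 genes where 10% of all genes had 1 sign. As deposited, Apoc1 lay above it and Nr1h2 below it on 4 of 4, again 2 of 10, where 11.4% of all genes had 1 sign. From bright features 0 of 8 genes had 1 sign in either reading, against 8.5% of bright genes with replicates 2 and 4 turned and 8.69% as deposited.

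Signs over the arrays coincided for some of the genes when bright features were used. The bright features of Abca1, Abcg1, Nr1h3 and Lpl lay above the median bright gene on replicate 1 and below it on replicates 2, 3 and 4, which makes 4 of 8 genes where 11.9% of bright genes did so. Over all features Lpl alone of these 4 kept these signs, with Abca1 at 0.05 on replicate 4, Abcg1 at -0.03 on replicate 1 and Nr1h3 at 0.99 on replicate 2. This pattern of signs was chosen after the values were seen, and it is not a comparison of the peptides under either reading of the labels.

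Markers of several cell types moved on the same arrays. Of 18 monocyte and macrophage markers 16 had a bright feature, and their median was 0.61, -0.59, -0.97 and -0.05 on replicates 1 to 4, beside 0.92, -0.65, -0.68 and -0.59 for Abca1. T cell markers had 0.86, -1.61, -1.29 and -1.33, beside 0.74, -1.59, -0.34 and -0.25 for Lpl. Lpl lay nearer the T cell median on replicate 2 and nearer the macrophage median on replicates 3 and 4. Of 18 measured T cell markers, 3 had an unadjusted p under 0.05 with columns read as Cy5 over Cy3 (all genes 2.58%) and 13 with columns already turned (all genes 3.27%), and 0 passed after adjustment in either reading. The 6 bright adipocyte markers of 12 measured had -0.29, 0.43, 0.10 and 0.15, endothelial markers -0.77, 1.01, -0.04 and -0.95, and proximal tubule markers -2.25, 2.10, 1.67 and -1.35, beside -0.81, 0.65, 0.07 and 0.74 for Cd36. Over all features the macrophage markers ranged from 0.06 to 1.97 on replicate 1 and from -2.56 to 0.24 on replicate 2. They ranged from -2.55 to 0.11 on replicate 3 and from -0.77 to 1.80 on replicate 4, where their median over all features was 0.30. The part of these cell types in the ratios of the 10 genes was not tested.

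**Figure D4:**
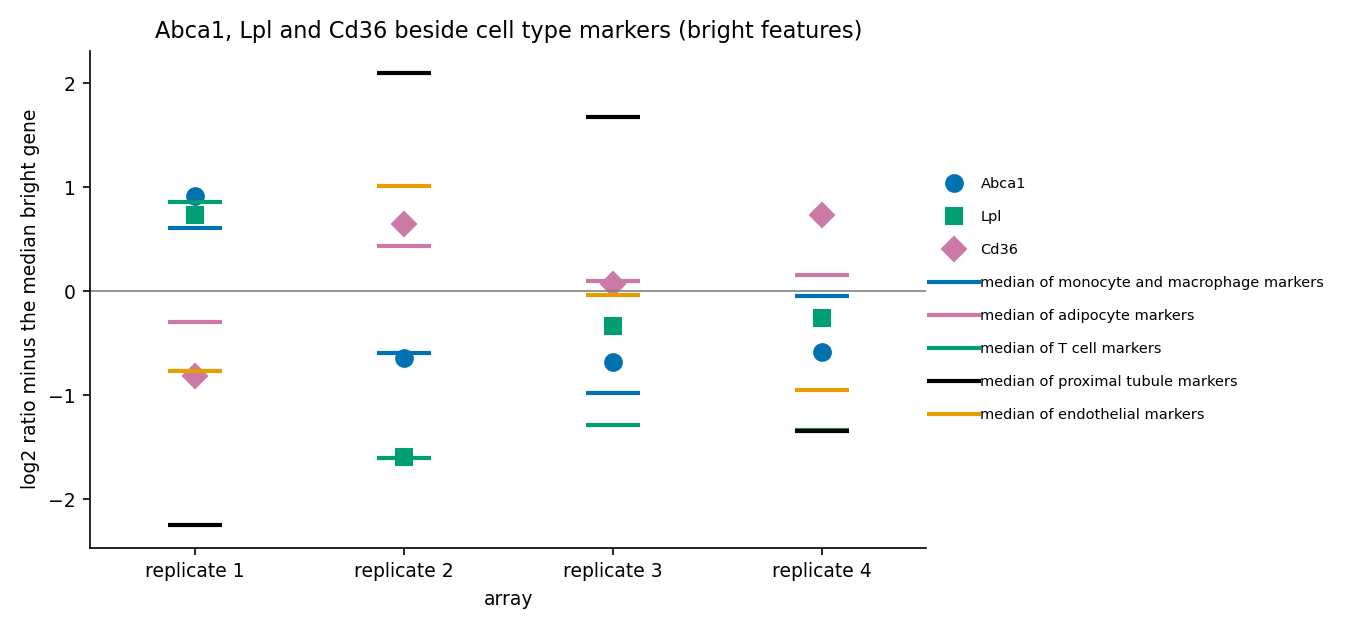
Log2 ratio minus the median bright gene of Abca1, Lpl and Cd36 (symbols) and the median over bright members of 5 marker lists (bars) on each array as deposited. On replicate 1 Abca1 at 0.92 and Lpl at 0.74 are positive, as are the macrophage and T cell medians of 0.61 and 0.86. On replicate 4 Abca1 at -0.59 and Lpl at -0.25 are negative and lie between those medians of -0.05 and -1.33.

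The size of the ratios was described for the group as a whole, without a test. Over all features the 10 genes had a median distance of 0.57 from the array's median gene, where all genes had 0.56. From bright features the median distance was 0.51 over 8 genes, where all bright genes had 0.32. Lpl, Abca1, Pltp and Cd36 stood at the 86.9, 86.1, 80.2 and 78.7 percentiles of bright genes by distance. The median coefficient of the 10 genes was -0.01 with columns read as Cy5 over Cy3 and -0.31 with columns already turned. All genes had 0.04 and -0.24.

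The rest of the pathway gave no call either. Of 87 further genes in 6 lists, 77 were measured and 35 had a bright feature. By limma adjusted p 0 of the 77 passed under either reading, 0 in each direction. At an unadjusted p under 0.05, 6 of 77 did with columns read as Cy5 over Cy3, where 2.58% of all genes did, with 3 in each direction: Apoa5, Pon1 and Soat2 had higher and Abcg5, Fabp4 and Rxrb lower values in ApoE-mimetic grafts. With columns already turned, 4 of 77 did, where 3.27% of all genes did: Abcg5, Apoc4, Ppard and Soat1. Values of single genes below are for columns read as Cy5 over Cy3, each followed by the value with columns already turned. Each of the first 6 rested on features that were dim, saturated or missing on at least 1 array.

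Among partners and cofactors of LXR, 0 of 12 passed the adjusted test, with a median coefficient of 0.02 and, already turned, -0.29. Rxrb, which encodes a retinoid X receptor, had -1.09 (SE 0.29) and, already turned, -0.03, and lay at -0.72, 1.38, -1.21 and 1.32 as deposited. Ncor1, a corepressor with 5 bright features, had -0.04 (SE 0.27) and -0.28. Nrip1, a further cofactor, had -0.21 (SE 0.31) and -0.15.

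Other LXR targets had 0 of 11 passing, with a median of 0.10 and, already turned, -0.36. Abcg5, a subunit of a sterol exporter of gut and liver, had -0.81 (SE 0.30) and 0.91, so its sign turned with the reading. Smpdl3a, a phosphodiesterase induced by LXR in macrophages, had 0.33 (SE 0.36) and -0.67, and Mid1ip1 had 0.31 (SE 0.36) and -0.25.

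Among other apolipoproteins 0 of 14 passed, and the list's median was -0.20 and, already turned, -0.12. Apoa5, an activator of lipolysis by Lpl, had 0.89 (SE 0.32) and -0.55, Apoa4 had -0.95 (SE 0.45) and 0.11, and Apoc4 had -0.65 (SE 0.33) and 1.21. The sign turned with the reading for each of these 3, and none had a bright feature. Among lipases and remodelling enzymes 0 of 10 passed, with a median of -0.07 and, already turned, 0.004. The bright gene Pnpla2, a triglyceride lipase inside cells, had 0.44 (SE 0.28) and -0.45. Pon1, an esterase carried on HDL, had 0.69 (SE 0.26) and 0.20, and the hormone-sensitive lipase gene Lipe had -0.57 (SE 0.36) and 0.22.

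Other scavenger and lipoprotein receptors had 0 of 11 passing and a median of 0.32 and, already turned, -0.06. Olr1, a receptor for oxidised LDL, had 0.69 (SE 0.49) and -0.33, Stab2 0.49 (SE 0.34) and -0.86, and Scarf1 0.40 (SE 0.28) and -0.06. Genes of cholesterol handling inside cells had 0 of 19 passing and a median of 0.11 and, already turned, -0.30. Fabp4, a fatty acid binding protein of adipocytes and macrophages, had -1.39 (SE 0.42), below the median gene on 4 of 4 turned arrays, and 0.07 with columns already turned. Soat2, which esterifies cholesterol, had 1.19 (SE 0.44) and 0.37, and Nceh1, which hydrolyses cholesteryl esters, had 0.59 (SE 0.37) and 0.05.

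Genes with the nearest profile were found by the smallest mean absolute difference over the 4 arrays among bright genes. Abca1 was nearest to Arid5a and C1s, at 0.05 and 0.08 log2 units, and Abcg1 to Dpp7 and Dapp1, at 0.05 and 0.06. Lpl was nearest to St3gal4 and Il18, at 0.13 and 0.16, and Cd36 to Tsc22d3 and Spef1, at 0.14 and 0.15. Pltp was nearest to Camk1g and Fxyd5, Scarb1 to Pdrg1 and Slx9, Nr1h2 to Syap1 and Ppp1r21, and Nr1h3 to Smu1 and Ddx23. The closest of the other listed genes to Abca1 was Abcg1, at 0.31, with 172 genes nearer, and the closest to Lpl was also Abcg1, at 0.35, with 107 nearer. For the other 6 genes with bright features, 473 to 2407 genes lay nearer than the closest listed gene.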

How the data were processed

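Gene expression in 8 kidney allograft samples was compared on 4 two-colour arrays. The authors deposited 1 ratio per feature and array, read here as log2, a unit inferred from the values and the dye-swap design. For scanner settings, background correction, normalization and log base, no detail is given in the labels. The base was read from the range of values (largest 11.3). Of 45220 features 25353 bear 1 gene symbol, 48 several and 19819 none, by the platform annotation, updated through a RefSeq table (GRCr8) where 1 feature changed symbol.

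Features were averaged per gene on each array. The fit (limma 3.58.1, R 4.3.3, lmFit and eBayes) ran across 14871 genes with a treatment and a dye coefficient, two-sided, with Benjamini-Hochberg adjustment and a threshold of 0.05. If the columns were already turned, the dye coefficient holds the effect of the peptide, and it was fitted for 14863 genes. The fit was run on simulated independent noise with planted changes larger than any fitted for the genes described here. Whether it would find smaller changes was not tested. Grid columns were inferred from feature numbers (85 columns). Signs were counted over 14847 genes with values on all arrays.

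The 10 genes and all gene lists were chosen with earlier results of these data known. Named genes are the 10, up to 3 of each pathway list (smallest unadjusted p, those of 1 sign first), and the 2 nearest genes in profile of each gene with a bright feature. Alternatives were the other reading of the columns, no dye term, centring, scaling, bright features alone, array weights, robust eBayes, position correction, medians over features and leaving out each replicate. No paired analysis beyond the array itself was needed, since each array pairs the samples.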

Additional observations from a re-analysis of the deposited data

How the results depend on the processing

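No gene was called in any fit, in limma with adjusted p under 0.05, and at an unadjusted p under 0.05 the fits gave 42 to 1374 genes, the most without replicate 2. None of the 10 genes was called (0), and at that unadjusted level 2 were with columns already turned and bright features alone (Abcg1, Lpl), 1 was without replicate 3 (Mylip), and 0 were in the other fits. Against columns read as Cy5 over Cy3, the sign turned for these genes. With columns already turned: Abca1 -0.46, Abcg1 -0.32, Nr1h2 -0.37, Nr1h3 -0.23, Lpl -0.68, Apoc1 0.30, Mylip 0.23. The same from bright features: Abca1 -0.57, Abcg1 -0.57, Nr1h2 -0.37, Nr1h3 -0.40, Lpl -0.68. The same with arrays centred: Abca1 -0.23, Abcg1 -0.093, Nr1h2 -0.14, Lpl -0.45, Cd36 0.063, Apoc1 0.53, Mylip 0.46. Centred and from bright features: Abca1 -0.25, Abcg1 -0.25, Nr1h2 -0.049, Nr1h3 -0.081, Lpl -0.36, Cd36 0.16. Scaling the arrays turned Nr1h2 to -0.025 and Nr1h3 to -0.046, and correcting for position turned Nr1h2 to -0.059. No dye term, array weights, robust eBayes, medians over features, centring and bright features alone turned none of the genes they measured. Leaving out 1 replicate gave -0.38 to 0.66 for Abca1 (turned without replicate 1), -0.012 to 0.37 for Abcg1 (without 2), -0.047 to 0.19 for Nr1h2 (without 3 or 4), -0.50 to 0.85 for Nr1h3 (without 4), -0.52 to 0.35 for Scarb1 (without 3 or 4) and -1.93 to 0.94 for Mylip (without 1). It gave 0.41 to 0.80 for Lpl, -0.52 to -0.10 for Cd36, -0.46 to -0.10 for Pltp and -0.45 to -0.09 for Apoc1, which kept their sign. Genes of 1 sign numbered 572 from bright features and 3045 over the 3 arrays without replicate 4, and of the 10 genes 0 had 1 sign from bright features and 0 without centring. The median distance of the 10 genes was 1.07 in scaled units. Causes were not tested. Both the already-turned fits on centred or bright values and the fit on centred bright values were chosen after seeing the data, as was the count without replicate 4. The precision is limited by 4 arrays, and Apoc1 and Mylip had no bright feature.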
